A study of Mus musculus with 48 samples.

Results

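The 9 RNAs described here are short noncoding transcripts that nearly every cell uses as structural or catalytic parts of ribonucleoprotein particles. They were taken by name as Rn7sk, Rmrp, Rpph1, Rny1, Rny3, Terc, Rnu11, Rnu12 and Vaultrc5, and each matched 1 of the 52636 gene identifiers in the expression table. Expression was measured by RNA sequencing of 48 punches of the right amygdala (AMG) from female mice aged 8 to 11 weeks, with 8 mice in each of 6 groups. Wild-type (WT) mice and mice heterozygous for a targeted deletion in Brd1 (Brd1+/- mice, on a C57BL/6NTac background) had been injected subcutaneously with saline vehicle, with imipramine (IMN) at 10 mg/kg or with fluoxetine (FLX) at 5 mg/kg. Per the study's methods, all mice had been through a tail suspension test, an open field and a forced swim test over 2 days before the tissue was taken, so that the vehicle mice were handled and stressed animals rather than naive ones. Brd1 encodes a scaffold protein of histone acetyltransferase complexes. Fewer cells of a type and less RNA per cell cannot be told apart in such bulk samples.

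RNA polymerase III makes 7SK (Rn7sk), RNase MRP RNA (Rmrp), RNase P RNA (Rpph1), the Y RNAs (Rny1 and Rny3) and the vault RNA (Vaultrc5), and RNA polymerase II makes the telomerase RNA (Terc) and the minor spliceosomal RNAs U11 and U12 (Rnu11 and Rnu12). 7SK holds the elongation kinase P-TEFb in an inactive particle together with HEXIM, LARP7 and MEPCE. RNase P trims the 5′ ends of precursor tRNAs, and RNase MRP, which shares most of its proteins with RNase P, acts in the maturation of ribosomal RNA. Y RNAs bind the Ro60 and La proteins, U11 and U12 recognise the rare introns of the minor spliceosome, and vault RNA sits in the large cytoplasmic vault particle. These RNAs are folded, most lack a stable poly(A) tail in their mature form and several, 7SK above all, are abundant in living cells, so that their level in a sequencing library depends on how the library was made. The sources used here do not state whether poly(A) RNA was selected or ribosomal RNA depleted.

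Rn7sk, the RNA on which most of the values below rest, is 331 bases long (chr9:78175303-78175633, minus strand, GRCm38, in no exon of another gene in the table). The first 241 bases of Rn7sk are identical to the first 241 bases of Gm24447, an annotated 7SK-related gene of 338 bases (chr15:93234363-93234700, plus strand), so both are shown from there on, with the last 100 shared bases in lower case and the bases after the shared start, which tell the genes apart, in capitals.
Rn7sk: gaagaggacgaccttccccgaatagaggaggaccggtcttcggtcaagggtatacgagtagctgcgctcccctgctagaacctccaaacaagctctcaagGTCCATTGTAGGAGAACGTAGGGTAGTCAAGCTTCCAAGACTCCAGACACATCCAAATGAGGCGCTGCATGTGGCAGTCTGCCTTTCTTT
Gm24447: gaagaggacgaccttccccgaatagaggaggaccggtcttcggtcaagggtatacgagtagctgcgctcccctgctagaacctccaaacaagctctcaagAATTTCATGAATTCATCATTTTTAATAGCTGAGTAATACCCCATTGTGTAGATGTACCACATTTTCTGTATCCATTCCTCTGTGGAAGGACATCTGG
A 50-base read, the length that the study's methods give, can start at 282 positions of Rn7sk. At 192 of these positions the same 50 bases occur in transcripts of 7 other annotated genes, and at 90 positions, or 31.9%, they occur in Rn7sk only. All sequences are the DNA letters of GENCODE M21 transcripts, in which T stands for U of the RNA.

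Rpph1 and Rmrp overlap protein-coding genes, and the capitals in their sequences (bases 1 to 300 of Rpph1, all of Rmrp) mark the bases that lie in an exon of the neighbour. Rpph1 (chr14:50807449-50807767, minus strand, 319 bases) has 233 bases, or 73.0%, in an exon of Ccnb1ip1 on the same strand. Rmrp (chr4:43492788-43493058, minus strand, 271 bases) has 45.8% of its bases in an exon of Ccdc107 on the opposite strand.
Rpph1: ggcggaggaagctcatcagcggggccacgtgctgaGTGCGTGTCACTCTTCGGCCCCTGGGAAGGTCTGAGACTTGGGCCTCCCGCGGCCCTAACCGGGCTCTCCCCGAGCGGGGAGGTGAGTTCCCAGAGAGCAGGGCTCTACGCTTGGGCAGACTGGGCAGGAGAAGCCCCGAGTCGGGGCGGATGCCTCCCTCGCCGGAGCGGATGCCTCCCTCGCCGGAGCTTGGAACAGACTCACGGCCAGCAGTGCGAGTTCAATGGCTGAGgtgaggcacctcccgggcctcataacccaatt
Rmrp: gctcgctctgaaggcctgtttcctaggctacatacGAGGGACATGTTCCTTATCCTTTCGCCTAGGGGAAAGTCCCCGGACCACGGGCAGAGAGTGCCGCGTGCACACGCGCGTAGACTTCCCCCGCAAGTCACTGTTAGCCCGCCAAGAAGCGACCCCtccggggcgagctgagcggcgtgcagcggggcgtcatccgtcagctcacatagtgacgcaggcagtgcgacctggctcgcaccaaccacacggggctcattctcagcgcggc
The 2 Y RNAs lie within the same stretch of chromosome 6, Rny1 at chr6:47788069-47788180 on the minus strand and Rny3 at chr6:47781624-47781725 on the plus strand. Their longest common run of bases, in capitals, is 12 bases long, which is shorter than a read, so that a 50-base read of one cannot match the other exactly.
Rny1: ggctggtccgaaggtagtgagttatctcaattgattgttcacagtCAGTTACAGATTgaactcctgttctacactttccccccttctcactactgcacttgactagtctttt
Rny3: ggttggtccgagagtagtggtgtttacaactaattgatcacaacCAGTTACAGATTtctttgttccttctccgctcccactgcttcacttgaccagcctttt

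Among the remaining RNAs, Terc (chr3:96414437-96414859, minus strand, 423 bases) and Vaultrc5 (143 bases) shared no 50-base window with another annotated gene. Rnu12 (chr15:83149644-83149794, plus strand, 151 bases) shared 55 of its 102 windows with other genes. Rnu11 (chr4:132270080-132270213, minus strand, 134 bases) shared all 85 windows, because it lies whole in an exon of Gm28872 on the opposite strand. All 222 windows of Rmrp recur in a second annotated Rmrp gene that is not used here. Whether reads were counted by strand is not given in the sources used here, so values of Rmrp and Rnu11 are uncertain in this respect. Rpph1 lies on the same strand as Ccnb1ip1, so counting by strand would not separate their shared reads. Ccnb1ip1 was listed at 0 in 47 of 48 libraries, whereas Ccdc107 had a mean of 44.5 TPM (a level scaled by transcript length and by library, in transcripts per 1e6).

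Most of these RNAs were listed at 0 in most libraries. Of the 432 values, 9 RNAs in 48 libraries, 152 were above 0, and a library had between 1 and 6 of the 9 RNAs above 0, with a median of 3. Rn7sk was above 0 in all 48 libraries and Rpph1 in 38 of them. Rmrp was above 0 in 16 libraries, Terc in 14, Vaultrc5 in 13, Rny1 in 9, Rny3 in 6, Rnu12 in 5 and Rnu11 in 3. A value of 0 cannot be read as absence of an RNA that living cells require. The deposited TPM values keep no read depth. The study's methods give a minimum number of clean reads per sample, and no limit on what a 0 allows was worked out from it.

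**Figure D1:**
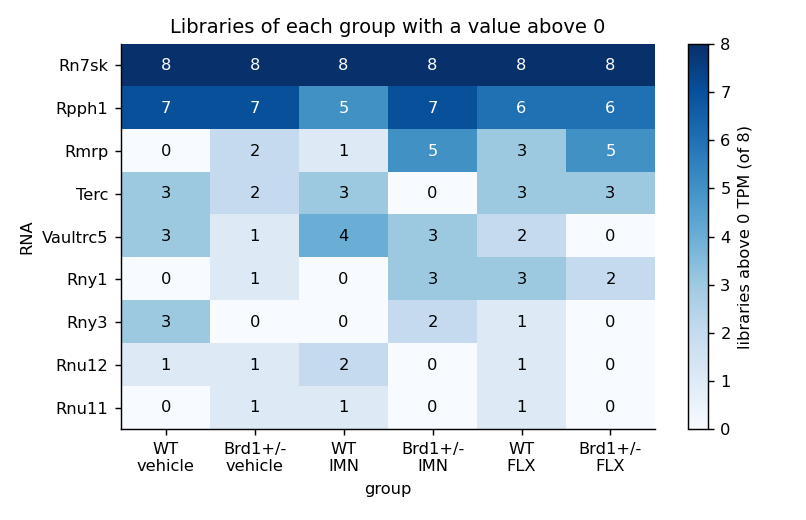
Number of libraries, of 8 per group, in which each of the 9 RNAs had a TPM above 0; rows are RNAs in the order of their totals, columns are the 6 groups. Rn7sk is at 8 in every group and Rpph1 at 5 to 7, while the other 7 RNAs are at 0 to 5.

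Values of the other 7 RNAs above 0 were low and left a gap to 0. The smallest value above 0 was 0.344 TPM for Terc, 0.357 for Vaultrc5, 0.413 for Rnu12, 0.451 for Rnu11, 0.522 for Rmrp, 0.672 for Rny1 and 0.707 for Rny3. The largest was 2.63 TPM, for Rny3 in a Brd1+/- IMN library. Low detection was shared by the annotated classes to which these RNAs belong. Over the 48 libraries, 10.4% of the values of 1385 small nuclear RNA genes, 21.4% of those of 1507 small nucleolar RNA genes and 20.9% of those of 562 genes of the class misc_RNA were above 0, against 70.7% for protein-coding genes and 47.8% for all genes. The replication-dependent and other genes of the histone clusters, many of whose mRNAs end in a stem-loop without a poly(A) tail, had 81.0% of values above 0.

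Even Rn7sk, which is among the most abundant nuclear RNAs of mammalian cells, held no high rank. Its mean over the 48 libraries was 6.13 TPM, and its median rank was 13025.5 among 52636 genes, with a best rank of 9565. The mRNAs of the proteins that these RNAs work with stood higher. All 59 protein genes of the partner lists (the 7SK particle and P-TEFb, RNase P and MRP, Y RNA binding, vault, telomerase, minor spliceosome and RNA polymerase III) were above 0 in all 48 libraries, with a median of their means of 27.5 TPM. Means of 54 of them lay above that of Rn7sk and 58 above that of Rpph1. Cdk9, the kinase of P-TEFb, had 87.2 TPM, Hexim1, the inhibitor that 7SK activates, 35.7, and Larp7, which protects the 3′ end of 7SK, 16.7. The lowest partners were Tep1, a protein of the vault and telomerase, at 1.12 TPM, Rpp40 of RNase P at 2.59 and Tert, the telomerase reverse transcriptase, at 2.77. Rnu7, the U7 RNA of histone mRNA processing and the only match among 7 further structural RNAs looked for, had a mean of 0.799 TPM.

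**Figure D2:**
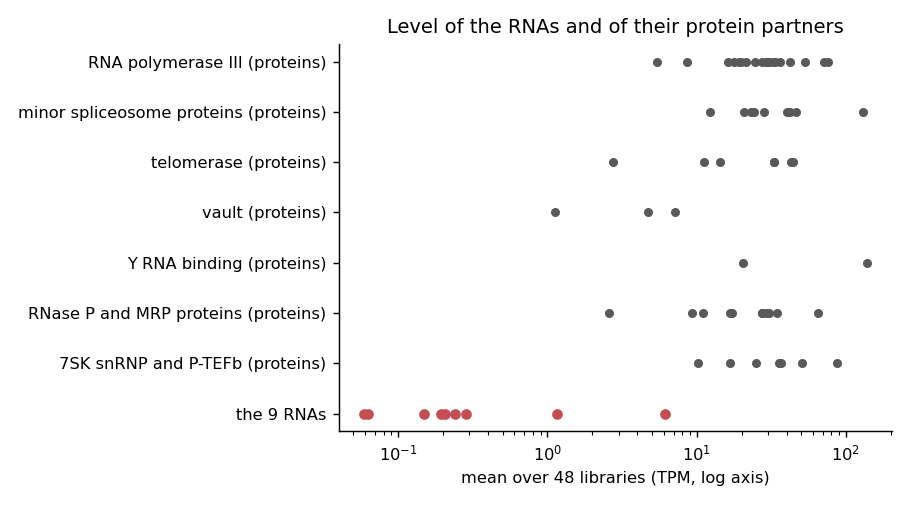
Mean TPM over 48 libraries on a log axis for the 9 RNAs (red) and for the genes of 7 lists of protein partners (grey), 1 point per gene. The 9 RNAs lie between 0.059 and 6.13 TPM and the 59 protein genes from 1.12 TPM (Tep1) upwards, 54 of them above Rn7sk.

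Each library had 23420 to 27252 genes above 0. Brd1 was lower in Brd1+/- than in WT mice in each treatment, at 26.0 ± 2.90 against 35.6 ± 5.09 TPM (SD, n = 8 each) with vehicle, 23.4 ± 4.84 against 36.9 ± 2.83 with IMN and 23.5 ± 3.49 against 32.9 ± 4.45 with FLX. Adjusted p-values of Brd1 (limma, Benjamini-Hochberg over all genes tested) were 0.0512, 0.102 and 0.0362. The punches held neuronal markers (summed level of 6 genes 1729 to 4954 TPM in every library) and markers of amygdala nuclei (summed level of 5 genes 35.7 TPM or more, with group medians of 77.2 to 177 TPM). Single amygdala markers fell low in some libraries, with lowest values of 0 TPM for Crh, 0.0818 for Rspo2, 0.449 for Cyp26b1, 2.76 for Nts and 8.40 for Prkcd. The punches also held markers of striatal projection neurons (summed level of 6 genes 101 to 7290 TPM, with group medians of 180 to 555 TPM). The part of these striatal markers in the values below was not tested. The numbers in the sample codes of the vehicle mice did not overlap with those of the IMN and FLX mice. Drug and sample series therefore cannot be told apart in any comparison with vehicle within a genotype. The same holds for the genotype by drug interactions, which also set vehicle mice against drug mice.

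The first question was whether heterozygous loss of Brd1 changes these RNAs in vehicle mice. Rn7sk was at 1.82 TPM in the lowest, 2.65 in the median and 9.37 in the highest WT vehicle library, and averaged 3.77 ± 2.55 TPM (SD, n = 8). For Brd1+/- mice given vehicle the same 3 values were 6.16, 7.17 and 11.7 TPM, and the average was 7.60 ± 1.78 (SD, n = 8). All but 1 of the WT libraries lay below the lowest Brd1+/- library, and the exception, the library with 9.37 TPM, lay above 7 of the 8 Brd1+/- libraries. The ratio of the means was 2.02. The fitted difference was 1.18 on the log2(TPM + 0.1) scale (SE 0.29, 95% confidence interval ± 0.61, unadjusted p = 0.00079), at rank 229 of 24279 genes by p, and did not pass the threshold after adjustment over all genes (limma adjusted p = 0.0837). No member was called among the 2 that passed the filter on low values (Rn7sk and Rpph1), where 0.708% of all genes tested were called. At an unadjusted p under 0.05 it was 1 of 2, Rn7sk, where 8.52% of all genes passed.

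The call for Rn7sk in vehicle mice turned on single libraries and on the fit. Without the WT vehicle library at 9.37 TPM the difference was 1.39 with an adjusted p of 0.00501 (limma), and in a fit of all 48 libraries together it was 1.18 with an adjusted p of 0.0170 (limma). Markers of mature oligodendrocytes moved with genotype in the same 16 libraries. All 5 of 5 markers were higher in Brd1+/- mice at an unadjusted p under 0.05, by 1.35 to 1.59 on the log2 scale, and 0 were called by limma after adjustment. Their summed level was 544 to 9520 TPM in WT vehicle (median 1650) and 1968 to 14393 TPM in Brd1+/- vehicle libraries (median 4781). At an unadjusted p under 0.05 were also 2 of 5 microglial markers (log2 differences of 0.16 to 0.36), 2 of 4 astrocyte markers (median 0.34), 1 of 4 endothelial markers (median 0.22) and 1 of 5 red blood cell genes (0.62 to 1.26), and limma called 0 of these after adjustment. With the oligodendrocyte marker level as a covariate the Rn7sk difference was 1.3 (limma adjusted p = 0.265). The number of genes above 0 moved too, from 24335 to 25611 in WT vehicle libraries and 25387 to 27252 in Brd1+/- vehicle libraries, and the part of these other markers and of the number of genes in the result was not tested.

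**Figure D3:**
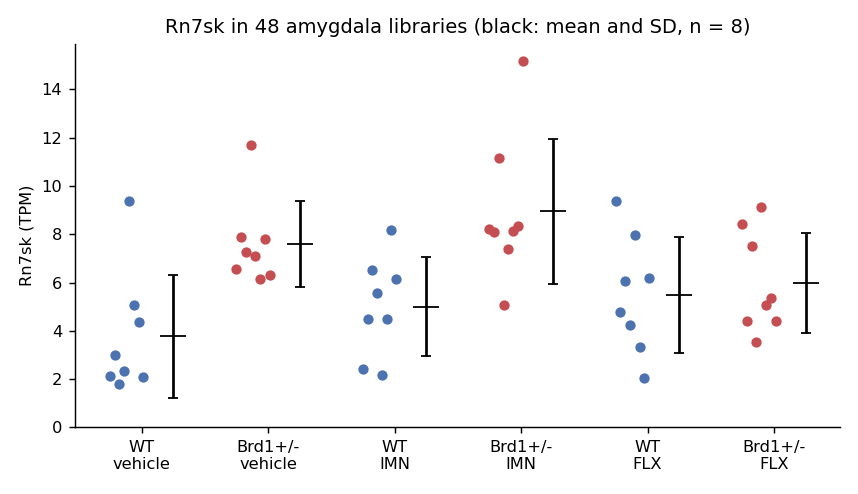
Rn7sk in TPM (linear axis) for each of the 48 libraries, with 8 per group, WT in blue and Brd1+/- in red; black bars give the mean and SD. Of 8 WT libraries 7 sit below every Brd1+/- library with vehicle, 4 with IMN and 2 with FLX, where the medians are 5.42 and 5.21 TPM.

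In IMN mice the genotype difference of Rn7sk had the same direction. WT IMN libraries ran from 2.18 to 8.17 TPM with a median of 5.03 and a mean of 5.00 ± 2.05 (SD, n = 8). Brd1+/- IMN libraries ran from 5.07 to 15.2 TPM with a median of 8.18 and a mean of 8.95 ± 3.01 (n = 8). The groups overlapped, with 4 of 8 WT libraries below the lowest Brd1+/- library. The difference was 0.88 (log2, SE 0.27, 95% confidence interval ± 0.58, unadjusted p = 0.00486, rank 77 of 23581 genes), with a limma adjusted p of 0.9996. Of the 2 members tested 0 were called, and 0.017% of all genes were. At an unadjusted p under 0.05 it was 1 of 2, and 3.58% of all genes. Of the oligodendrocyte markers 0 of 5 passed that level here (log2 differences of -0.64 to -0.34). Choroid plexus markers were 0.42 to 3.30 higher in Brd1+/- mice, with a median of 1.82 over the 4 of 5 that were tested and 1 of 4 at an unadjusted p under 0.05, and 1 of 4 endothelial markers, which had a median of -0.13, also passed that level. Summed choroid plexus levels were 14.8 to 1235 TPM in WT IMN and 19.2 to 3436 TPM in Brd1+/- IMN libraries. None of these markers was called by limma. With the oligodendrocyte marker level as a covariate, Rn7sk kept its direction and was still not called by limma. The part of the choroid plexus and endothelial markers in the Rn7sk value was not tested.

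In FLX mice Rn7sk values of the genotypes overlapped. The lowest, median and highest values were 2.06, 5.42 and 9.36 TPM in WT FLX and 3.55, 5.21 and 9.12 TPM in Brd1+/- FLX libraries, and the means were 5.49 ± 2.40 and 5.97 ± 2.08 (SD, n = 8 each). The difference was 0.18 (log2, SE 0.29, 95% confidence interval ± 0.60), with a limma adjusted p of 0.803. Of the 3 members tested (Rn7sk, Rmrp and Rpph1) 0 were called by limma and 0 had an unadjusted p under 0.05, while 1.54% of all genes were called and 16.6% had such a p.

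Whether the genotype difference depended on the drug, or on the sample series that goes with it, was tested as an interaction. For FLX against vehicle the interaction of Rn7sk was -1.0 (log2, SE 0.41, 95% confidence interval ± 0.84, unadjusted p = 0.0215, limma adjusted p = 0.208), that is, a genotype difference smaller with FLX than with vehicle that did not pass after adjustment. Of the 4 members tested 0 were called and 1 had an unadjusted p under 0.05, where 1.71% of all genes were called and 16.8% had such a p. The median of all genes in this interaction was -0.10, on the same scale. Of the mature oligodendrocyte markers 5 of 5 had an unadjusted p under 0.05, with log2 interaction values of -2.13 to -1.93. At the same level were 2 of 4 astrocyte markers (median -0.58), 1 of 4 endothelial (median -0.40) and 1 of 6 neuronal markers (median 0.15). None of these markers was called by limma, and their part in the Rn7sk value was not tested. For IMN the interaction was -0.29 (SE 0.40, limma adjusted p = 0.880), with 0 of 5 members called by limma or under an unadjusted p of 0.05, where 0.536% of all genes were called and 9.24% had such a p. Here too 5 of 5 mature oligodendrocyte markers had an unadjusted p under 0.05, with log2 interaction values of -2.21 to -1.87. So did 4 of 5 microglial (median -0.45), 1 of 5 amygdala (median -0.40) and 1 of 4 endothelial markers (median -0.36). None of them was called by limma, and their part in the Rn7sk value was not tested.

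Averaged over the 3 treatments in a fit of all 48 libraries, a comparison added after the values had been seen, Rn7sk was 0.75 higher in Brd1+/- mice (log2, SE 0.17, 95% confidence interval ± 0.34, limma adjusted p = 0.0277). It was the only one of 6 members tested that was called, where 0.286% of all genes were called, and it had rank 53 of 27944 genes by p. This call was lost without the Brd1+/- vehicle library at 11.7 TPM, where the difference was 0.72 with an adjusted p of 0.0516 (limma). It was also lost with a filter of 1 TPM (limma adjusted p = 0.0571) and with the labels' replicate number as a block (limma adjusted p = 0.0555). In the main fit of this average 2 of 5 choroid plexus markers had an unadjusted p under 0.05 and 0 were called by limma, with log2 genotype differences of -0.03 to 2.69 (median 1.63). Of these 5 markers 1 was above 0 in all 48 libraries, the summed level reached from 8.02 to 29336 TPM in WT and from 14.5 to 28696 TPM in Brd1+/- libraries, and its part in the Rn7sk value was not tested. Of the 6 members 2 had an unadjusted p under 0.05, Rn7sk and Rmrp, where 9.12% of all genes had such a p. Rmrp passed the filter through the Brd1+/- libraries, in which it was more often above 0, so its value of 1.12 is a description.

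Drug against vehicle comparisons gave Rn7sk differences below the genotype differences seen with vehicle and IMN. In WT mice they were 0.49 with IMN (log2, SE 0.35, limma adjusted p = 0.970) and 0.62 with FLX (SE 0.35, limma adjusted p = 0.402). In Brd1+/- mice they were 0.20 with IMN (SE 0.19, limma adjusted p = 0.848) and -0.39 with FLX (SE 0.20, limma adjusted p = 0.786). In each of these 4 comparisons 0 of the 2 members tested were called by limma and 0 had an unadjusted p under 0.05. The shares of all genes called were 0% with IMN and 0.335% with FLX in WT mice and 0.776% and 0.731% in Brd1+/- mice. Unadjusted p-values under 0.05 were had by 4.58% and 16.8% of all genes in WT mice and by 9.3% and 6.94% in Brd1+/- mice. With FLX in WT mice 5 of 5 mature oligodendrocyte markers (log2 1.10 to 1.42) and 2 of 5 amygdala markers had such a p. With IMN in Brd1+/- mice it was 5 of 5 oligodendrocyte (-1.30 to -0.94), 3 of 5 microglial and 2 of 4 endothelial markers. In the other 2 comparisons with vehicle it was 0 of 5 oligodendrocyte markers. None of these markers was called by limma, and their part in the Rn7sk values was not tested. Between the drugs, FLX minus IMN was 0.12 in WT mice (SE 0.32, limma adjusted p = 0.944) and -0.58 in Brd1+/- mice (SE 0.23, unadjusted p = 0.0213, limma adjusted p = 0.9997). No member was called between the drugs (0 of 2 in WT and 0 of 3 in Brd1+/- mice, with 0% of all genes called in either), and at an unadjusted p under 0.05 it was 0 of 2 and 1 of 3, where 4.78% and 2.99% of all genes had such a p. Groups are shared among these comparisons, so their values are not independent of each other.

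**Figure D4:**
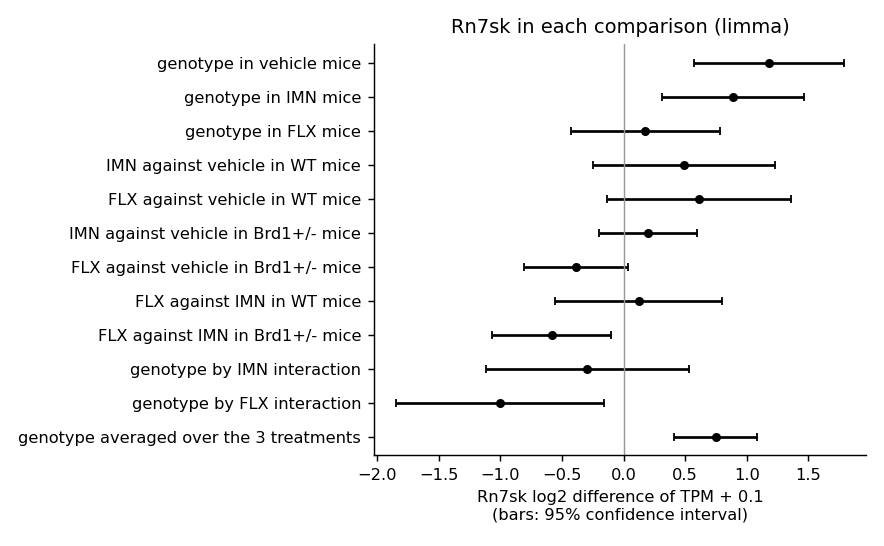
Fitted log2 difference of Rn7sk in each comparison (points) with its 95% confidence interval (bars), on the log2(TPM + 0.1) scale; the vertical line marks 0. Intervals of the genotype comparisons in vehicle and IMN mice, of the average over treatments, of FLX against IMN in Brd1+/- mice and of the FLX interaction lie to one side of 0.

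Since most 50-base windows of Rn7sk also occur elsewhere, genes of like sequence were set beside it. In the annotation 13 other genes matched Rn7sk at 90% identity or more over at least 50 bases, all 13 were in the table, and 10 of them were above 0 in at least 1 library. The alignments of 11 of them spanned 233 to 246 of the 331 bases of Rn7sk. Gm26315 (235 bases at 100% identity, mean 2.40 TPM), Gm24447 (241 bases at 100%, 2.28 TPM) and Gm26035 (233 bases at 95.7%, 1.36 TPM) were above 0 in all 48 libraries. Rn7sk made up 22.2% to 66.7% of the sum of itself and the 13 genes, with a median of 43.0%. How the counting step divided shared reads among these genes cannot be seen in the deposited values.

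Some of the 7SK-related genes varied with Rn7sk among libraries of a group. Among 21026 genes compared, the genes most like Rn7sk in their deviations from the group means of log2(TPM + 0.1) were Gm26035 (Pearson's r = 0.645 over 48 libraries) and Gm24447 (r = 0.643), both in this family, where the median over genes was 0.033 and the 99th percentile 0.373. These genes share bases and libraries with Rn7sk, so the likeness is a description of the values. With vehicle Gm24447 averaged 1.67 ± 0.66 TPM in WT mice and 2.73 ± 0.88 in Brd1+/- mice (SD, n = 8 each, log2 difference 0.71, limma adjusted p = 0.434), and Gm26315 was at 1.78 ± 0.68 and 2.99 ± 0.80 TPM (0.76, limma adjusted p = 0.326). Gm24146, Gm26035 and Gm22058 also had log2 genotype differences above 0 in each treatment, none of them called by limma. Gm25580 did not share the direction of Rn7sk in every treatment. Its log2 genotype differences were 0.24 with vehicle, -0.74 with IMN and -1.41 with FLX (limma adjusted p = 0.960, 0.9996 and 0.339). Summed over Rn7sk and all 13 genes, WT vehicle libraries held 5.20 to 16 TPM (median 8.95) and Brd1+/- vehicle libraries 14.6 to 24.9 TPM (median 16.6). The summed difference was 0.88 on the log2 scale in vehicle mice (limma adjusted p = 0.0670), 0.67 in IMN mice (limma adjusted p = 0.9996) and 0.13 in FLX mice (limma adjusted p = 0.832). Averaged over treatments it was 0.56 with a limma adjusted p of 0.0978, which did not pass, unlike that of Rn7sk alone.

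**Figure D5:**
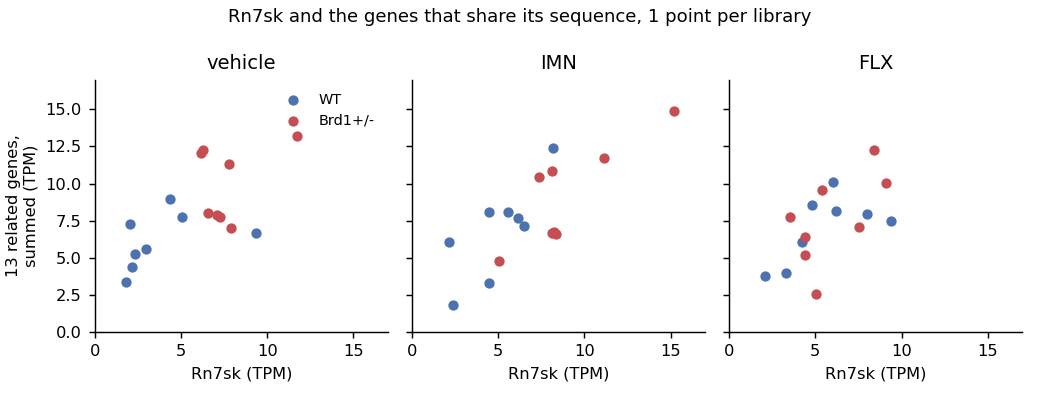
Summed TPM of the 13 genes related to Rn7sk against TPM of Rn7sk, 1 point per library, in vehicle, IMN and FLX mice, WT in blue and Brd1+/- in red. In the vehicle panel the Brd1+/- libraries lie at 6.98 to 13.2 TPM of the sum and the WT libraries at 3.38 to 8.93 TPM.

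Another RNA made by polymerase III had a much larger genotype difference in vehicle mice. Rn7s2, which encodes 7SL, the RNA scaffold that targets nascent secretory proteins, averaged 93.8 ± 21.6 TPM in the Brd1+/- and 2.70 ± 1.21 TPM in the WT libraries given vehicle (SD, n = 8 each). Its log2 genotype difference was 0.45 with IMN (limma adjusted p = 0.9996) and -0.38 with FLX (limma adjusted p = 0.724). Within groups the correlation of Rn7sk with Rn7s2 was r = 0.222, and with Rn7s1, the other 7SL gene, r = 0.314 (48 libraries each). No protein of the 7SK particle was called beside the 2.02-fold ratio of Rn7sk means. For the 7 genes of the 7SK particle and P-TEFb, log2 differences in vehicle mice were -0.17 (Mepce, which caps 7SK) to -0.01 (Hexim2), with 0 of 7 called by limma and 0 of 7 at an unadjusted p under 0.05. Log2 differences of the 20 genes of the RNA polymerase III list were -0.35 (Snapc3) to 0.43 (Polr3e) in these mice. Limma called 0 of the 20, and 3 had an unadjusted p under 0.05, where 8.52% of all genes had such a p. Over all 12 comparisons and 59 partner genes, 1 gene was called in 1 comparison, the FLX genotype comparison, in which 1.54% of all genes were called, a share near 1 of 59. Pdcd7, a protein of the U11/U12 particle, was lower in Brd1+/- than in WT FLX mice, at 22.7 ± 4.08 against 37.6 ± 10.2 TPM (SD, n = 8 each, log2 difference -0.70, SE 0.16, limma adjusted p = 0.0356). Rnu11 and Rnu12, the RNAs of that particle, were listed at 0 in all 8 Brd1+/- FLX libraries and above 0 in 1 WT FLX library each. Both were also at 0 in all 8 Brd1+/- IMN libraries. In the IMN genotype comparison Pdcd7 was not called (log2 difference -0.22, limma adjusted p = 0.9996).

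Rpph1, the catalytic RNA of RNase P, was the only other member tested in every comparison. With vehicle its lowest, median and highest values were 0, 0.539 and 2.58 TPM in WT and 0, 1.26 and 3.18 TPM in Brd1+/- libraries. With IMN they were 0, 0.493 and 2.24 TPM in WT and 0, 1.87 and 5.52 TPM in Brd1+/- libraries, the largest gap between medians. With FLX they were 0, 0.935 and 2.67 TPM in WT and 0, 0.770 and 1.02 TPM in Brd1+/- libraries. All 6 groups overlapped and each had at least 1 library at 0. The genotype difference on the log2(TPM + 0.1) scale was 0.60 with vehicle (limma adjusted p = 0.896), 1.77 with IMN (SE 0.86, unadjusted p = 0.0558, limma adjusted p = 0.9996) and -0.37 with FLX (limma adjusted p = 0.855). Leaving out 1 library moved the vehicle value between 0.19 (without WT replicate 1) and 1.09 (without Brd1+/- replicate 1), and the FLX value between -0.77 (without WT replicate 5 or 6) and -0.03 (without Brd1+/- replicate 5 or 8). The 95% confidence interval with IMN was ± 1.82, which covers both 0 and a change larger than that of Rn7sk. Rpph1 was not called in any comparison, and its unadjusted p was above 0.05 in each. Within groups it followed Rn7sk weakly (r = 0.247 over 48 libraries).

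Rmrp, the RNA of RNase MRP, was above 0 more often in Brd1+/- than in WT libraries. It was above 0 in 12 of 24 Brd1+/- libraries and 4 of 24 WT libraries, and in no WT vehicle library. With vehicle 2 of 8 Brd1+/- libraries had values, 0.561 and 0.644 TPM. With IMN 1 of 8 WT libraries (0.557 TPM) and 5 of 8 Brd1+/- libraries (0.556 to 1.00 TPM) were above 0. With FLX it was 3 of 8 WT libraries (0.556 to 0.787 TPM) and 5 of 8 Brd1+/- libraries (0.522 to 2.36 TPM). Rmrp passed the filter in the FLX genotype comparison, where its log2 difference was 1.06 (SE 0.81, limma adjusted p = 0.558). The fit over all 48 libraries did not call it either. Ccdc107, whose exon covers part of Rmrp on the other strand, was above 0 with a mean of 44.5 TPM, and its part in the Rmrp values was not tested.

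The Y RNAs were seen in few libraries. Rny1 was above 0 in 6 of 24 Brd1+/- and 3 of 24 WT libraries, with values of 0.672 to 1.59 TPM, and in no WT vehicle or WT IMN library. Rny3 was above 0 in 2 Brd1+/- libraries, both with IMN (1.70 and 2.63 TPM), and in 4 WT libraries, 3 of them with vehicle (0.707 to 1.56 TPM). The mRNAs of their binding proteins were present throughout, with Trove2, which encodes Ro60, at a mean of 20.3 TPM and Ssb, which encodes La, at 106 to 171 TPM. Rny3 did not pass the filter in any comparison, and Rny1 passed only in the average over treatments, where it was 0.40 higher on the log2 scale in Brd1+/- mice (limma adjusted p = 0.798).

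Terc, the template RNA of telomerase, was above 0 in 5 of 24 Brd1+/- and 9 of 24 WT libraries. Its highest value was 1.34 TPM in a WT FLX library, and no Brd1+/- IMN library had a value above 0. Vaultrc5 was above 0 in 4 of 24 Brd1+/- and 9 of 24 WT libraries, with 4 of 8 WT IMN libraries at 0.672 to 1.07 TPM and none of the Brd1+/- FLX libraries. In the average over treatments Terc and Vaultrc5 passed the filter through the WT libraries, in which they were more often above 0, and neither was called. Mvp, the major vault protein, had a mean of 7.14 TPM over the libraries.

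The minor spliceosomal RNAs were the rarest members. Rnu11 was above 0 in 3 libraries, 1 of Brd1+/- vehicle (0.451 TPM), 1 of WT IMN (1.43 TPM) and 1 of WT FLX (1.12 TPM). Rnu12 was above 0 in 5 libraries, 4 of them WT, with values of 0.413 to 0.710 TPM. Neither passed the filter in any comparison. The mRNAs of the 9 proteins of the minor spliceosome had means of 12.2 (Snrnp35) to 131 TPM (Zcrb1).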

How the data were processed

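RNA from right AMG punches (Maxwell simplyRNA kit) was made into TruSeq libraries and sequenced as single 50-base reads. The authors aligned reads with HISAT2 2.1.0 to GRCm38 and assembled and quantified genes with StringTie 1.3.4, per the labels and methods, and deposited TPM per gene and library. TPM divides by transcript length and sums to nearly the same total in each library, so it keeps no read depth. The study's methods give only a minimum number of clean reads per sample. Precision was therefore judged from replicate number and spread alone. The 9 RNAs and the gene lists were chosen with earlier results of these data known. All 9 were named, partner genes where called, and the genes most like Rn7sk by correlation. Groups came from the labels, with 8 mice each. Replicate numbers of the labels were checked for pairing, which they did not show, though such a check cannot exclude it. Per the study's methods WT and Brd1+/- mice were litter-matched, and litter did not enter the fits.

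Genes with at least 0.1 TPM in at least 8 libraries of a fit were tested on log2(TPM + 0.1) with limma 3.58.1 in R 4.3.3 (eBayes with trend, two-sided), with Benjamini-Hochberg adjustment over all genes tested and a threshold of 0.05. Fold changes on this scale understate the change of low genes. The fit was tested on simulated data, with changes placed only in genes at 1 TPM or more in most libraries. Of the members only Rn7sk was of that kind, so the test did not cover those often listed at 0. No count model was used, since no read counts were analysed. Sequences, exons and copies came from GENCODE M21 (GRCm38 annotation, which holds 99.7% of the table's gene identifiers) with BLAST+ 2.17.0 and exact 50-base windows. Of the annotation's 10 identifiers for the 9 names, 9 are in the table. The other, a second Rmrp identifier, is not used here. The symbols Ro60, Rnu4atac, Rnu6atac, Rny4, Rny5, Vaultrc1 and Vaultrc2 had no match by name. Alternatives were pseudocounts of 0.01 and 1, no filter or 1 TPM, median-ratio and protein-coding scaling, all 48 libraries in 1 fit, a block for the labels' replicate number, a covariate for the sample-code number and leaving out each library. The genotype average over treatments, the oligodendrocyte covariate, the sum over 7SK-related genes and leaving out both high Rn7sk libraries were added after seeing the data.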

Additional observations from a re-analysis of the deposited data

Results flagged for a closer look

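In 13 of 41 groups of 8 libraries with any value above 0, the highest library stood apart from the others by Dixon's criterion, which chance alone passes in about 1 of 20 groups. In 10 of these 13 a single library was above 0, so the criterion was met by construction. Rn7sk stood apart in 2 groups, at 9.37 TPM in WT vehicle replicate 5 and at 11.7 TPM in Brd1+/- vehicle replicate 4, and both libraries decide a call given in the report. Terc stood apart at 1.34 TPM in WT FLX replicate 2, with 3 libraries of that group above 0. The single libraries above 0 were Rmrp at 0.557 TPM in WT IMN replicate 7, Rny1 at 1.51 TPM in Brd1+/- vehicle replicate 6, Rny3 at 1.48 TPM in WT FLX replicate 5, Vaultrc5 at 0.895 TPM in Brd1+/- vehicle replicate 6, Rnu11 at 0.451 TPM in Brd1+/- vehicle replicate 3, at 1.43 TPM in WT IMN replicate 2 and at 1.12 TPM in WT FLX replicate 5, and Rnu12 at 0.517 TPM in WT vehicle replicate 7, at 0.413 TPM in Brd1+/- vehicle replicate 5 and at 0.710 TPM in WT FLX replicate 6.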

How the results depend on the processing

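The number of members called kept its value under 362 of 369 alternatives over the 12 comparisons. In vehicle mice it went from 0 to 1, Rn7sk, in the fit of all 48 libraries (log2 1.18, limma adjusted p = 0.0170), and without both high Rn7sk libraries (1.3, limma adjusted p = 0.0194). Leaving out each library in turn gave 0 to 1 members called and Rn7sk differences of 1.07 to 1.39, with limma adjusted p-values of 0.00501 to 0.231. Only leaving out WT vehicle replicate 5 gave a call. For the average over treatments the count went from 1 to 0 with a filter of 1 TPM (limma adjusted p = 0.0571), with the sum over related genes (0.56, limma adjusted p = 0.0978) and without Brd1+/- vehicle replicate 4 (leave-one-out range 0 to 1 called, 0.69 to 0.82). With the replicate number as a block it also went from 1 to 0 (limma adjusted p = 0.0555), and the block left 0 members called in the other 11 comparisons. The values did not show a pairing of the mice by number, but this check cannot exclude one. Deviations of same-numbered libraries correlated at -0.30 to 0.58, in none of 9 comparisons were all 8 pairs over 0.1, and 0 to 2 of 8 libraries correlated best with their own number. The cause of these changes was not tested.

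Differences near 0 changed sign. For Rn7sk this was IMN against vehicle in Brd1+/- mice with the sum over related genes (-0.0058) and FLX against IMN in WT mice when 1 library was left out (-0.026 to 0.30 over the 16). For Rpph1 it was the FLX genotype comparison with the sample-code covariate (0.11), FLX against vehicle in WT mice with a pseudocount of 1 (0.046) or without 1 library (-0.48 to 0.32), and IMN against vehicle in Brd1+/- mice without 1 library (-0.012 to 1.04). Without the read depth of each library, no limit was put on the values listed at 0.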
